A study of Homo sapiens with 16 samples.

Results

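253J is an established human bladder cancer (BC) cell line, and its identity before any drug was described here from the 2 libraries of 253J cells labelled as controls. They were chosen by their labels as vehicle control, among 8 control libraries and 16 libraries in all. The series measured total RNA, depleted of ribosomal RNA, in 4 BC lines (253J, J82, RT112 and TCCSUP) after 48 h with the histone deacetylase inhibitor CM-1758 or, as the labels give it, with the DMSO vehicle; the study also calls the control cells untreated. The reference for 253J control was the mean of the J82, RT112 and TCCSUP control lines, each line being represented by 2 libraries and given the same weight, and each line was also compared with 253J on its own.

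All 4 control groups were labelled wild type (WT), which says only that no engineered change was made, and all were labelled as vehicle control. 253J, J82 and RT112 were grown in DMEM GlutaMAX and TCCSUP in EMEM, each with serum, so that for TCCSUP the medium and the line cannot be told apart. Each group is a single cell line, so that the differences below are between lines and not between classes of tumour, and the p-values measure only the spread between the 2 libraries of each line. The control libraries held 27655401 to 32537104 counts. Between 17481 and 17738 genes had more than 3 counts in the 253J libraries, against 17074 to 17785 in the other control libraries. The share of counts in 7 abundant small noncoding RNAs was 9.58% to 11.2% in 253J and 9.63% to 13.2% in the others. The 2 libraries of a line were much closer to each other (Pearson's r across tested genes of 0.984 to 0.991 on log2 values) than any pair of lines.

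The urothelium, the lining of the bladder, is built from basal cells that carry the transcription factor p63 and keratins 5 and 14, and from luminal cells that carry uroplakins, keratin 20 and the transcription factors GATA3, PPARG and FOXA1. BC lines keep these programmes to very different degrees. Epithelial cells are held together by E-cadherin and claudins under the control of GRHL and ESRP factors, whereas mesenchymal cells express vimentin, N-cadherin and the repressor ZEB1, and a line can hold genes of both states.

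The comparison asked which genes set 253J apart from the other lines at baseline. Of 18307 tested genes, 2152 (11.8%) were higher and 1196 (6.53%) were lower in 253J than the mean of the other lines, at a log2 fold change beyond 2 in either direction and an adjusted p under 0.01 (edgeR's quasi-likelihood test, Benjamini-Hochberg adjustment). A gene can be far from that mean because 1 line lacks it: for 115 of the higher genes the 253J level was below the arithmetic mean of the 3 line means. For this reason the genes that passed the same limits against each line separately were taken as those that set 253J apart. There were 802 higher (4.38%) and 639 lower (3.49%) genes of this kind. Against single lines, 253J was higher for 2088 genes (11.4%) and lower for 1660 (9.07%) compared with J82, higher for 2191 (12%) and lower for 2007 (11%) compared with RT112, and higher for 1873 (10.2%) and lower for 2111 (11.5%) compared with TCCSUP.

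Across tested genes the line means of 253J correlated with those of J82 at r = 0.781, of TCCSUP at r = 0.741 and of RT112 at r = 0.73, while J82 and TCCSUP correlated at r = 0.847. These values describe the same genes in all lines and genes are not independent replicates.

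**Figure D1:**
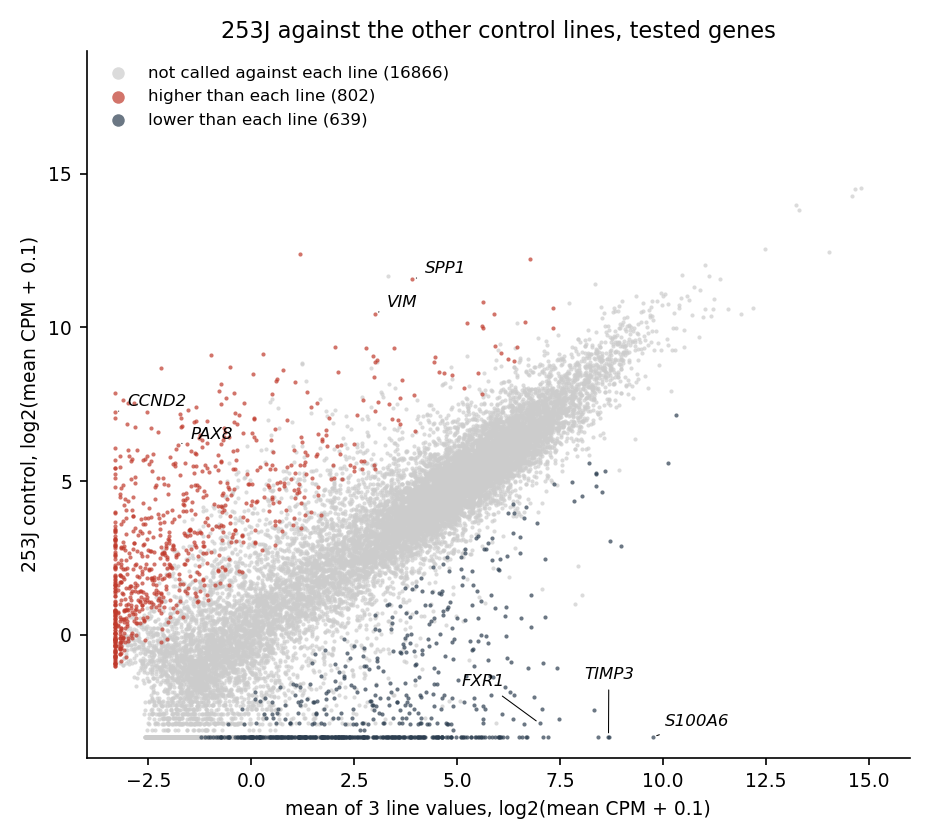
Each point is 1 tested gene; the x axis is the average over J82, RT112 and TCCSUP of log2(mean CPM + 0.1) and the y axis is log2(mean CPM + 0.1) of the 2 253J control libraries, where CPM is the count scaled to library size. Red points are the 802 genes higher and dark points the 639 genes lower in 253J than in each line; the row of dark points along the lower edge holds genes with no count in 253J, S100A6 and TIMP3 among them.

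Several defining urothelial markers were absent from 253J. Levels are given as CPM with the library size adjusted by the TMM factors, which do not correct for gene length, so that they compare libraries for a gene and not genes with each other. The basal keratin gene KRT5 had 0 counts in both 253J libraries and in both J82 libraries, 0 and 0.36 CPM in TCCSUP, and 252 and 263 CPM in RT112. KRT14, its partner keratin, had 0 counts in 253J and J82 and at most 2.90 CPM elsewhere. TP63, which encodes p63, was at 0.067 and 0.14 CPM in 253J, 0 and 0.065 in J82, 0.53 and 1.05 in TCCSUP, and 126 and 124 in RT112. The 253J values thus lay near those of J82 and TCCSUP, and RT112 stood apart. TP63 was lower than the mean (−3.84, SE 0.86, adjusted p = 0.00336), but the adjusted p was 0.0149 without 253J replicate 2 and 1 without J82 replicate 3.

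Among luminal markers RT112 was again highest, and the place of 253J among the other lines differed from gene to gene. UPK2, which encodes a uroplakin, and KRT20 had 0 counts in 253J, J82 and TCCSUP, whereas RT112 had 3.76 and 4.23 CPM of UPK2 and 6.004 and 6.12 CPM of KRT20. GATA3, a luminal transcription factor, was at 0.30 and 0.40 CPM in 253J, 1.36 and 0 in J82, 5.18 and 6.75 in TCCSUP, and 33.8 and 35.8 in RT112. The 253J values lay between the 2 J82 values, so the groups overlapped, and the call against the mean (−3.88, SE 0.74, adjusted p = 0.00127) was lost without 253J replicate 2 (adjusted p = 0.021), 253J replicate 3 (0.0167) or J82 replicate 1 (0.995). PPARG, a nuclear receptor of luminal differentiation, was at 5.33 and 6.30 CPM in 253J, 21.9 and 29.1 in J82, 180 and 200 in RT112, and 88.7 and 79.9 in TCCSUP, and was lower in 253J than in each line (log2 fold change against the mean −3.67, SE 0.17, adjusted p = 6.32e-08). FOXA1 was at 5.76 and 5.22 CPM in 253J, above J82 (1.29 and 1.08) and below TCCSUP (9.43 and 8.64) and RT112 (41.6 and 41.3), and was not called against the mean (−0.47, SE 0.14).

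Of 31 tested members of a luminal list, 3 were higher and 8 lower than the mean (11.8% and 6.53% of all genes), and 1 and 3 against each line (4.38% and 3.49%). KLF5, a zinc finger factor of epithelial progenitors, was lower than in each line, at 2.02 and 2.05 CPM against 23.0 to 144 CPM. ADIRF had 0 counts, and the third was PPARG. BHMT, an enzyme of betaine and methionine metabolism, was the luminal list member higher in 253J than in each line, at 1.75 and 1.33 CPM against 0 counts elsewhere. KRT8, KRT18 and KRT19, the keratins of simple epithelia, were present in both 253J libraries, at 397 and 286 CPM for KRT8, 2603 and 1747 for KRT18 and 849 and 791 for KRT19, and none of them was called.

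Of 28 tested members of a basal and squamous list, 2 were higher and 4 lower than the mean (11.8% and 6.53% of all genes), and 3 (10.7%) were lower than in each line (3.49%). KRT17, a keratin of basal cells, had 0 counts in 253J, while the other libraries had between 13.2 and 1141 CPM, which was at least 131.8-fold higher in TCCSUP, 483.3-fold in J82 and 10180-fold in RT112 (bounds set by a floor of 3 counts per 253J library). TRIM29 and CDH3, which encodes P-cadherin, were the other 2. CD44, a surface glycoprotein often used as a basal marker, was at 900 and 809 CPM in 253J and was not called (1.09). Checked against the bladder cancer label, the basal genes KRT5, KRT14, KRT17 and TP63 and the luminal genes UPK2, KRT20 and GATA3 were thus at 0 or below 0.5 CPM in 253J, whereas PPARG, FOXA1 and CD44 were present. KRT5, KRT14, UPK2 and KRT20 had 0 counts in J82 as well.

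**Figure D2:**
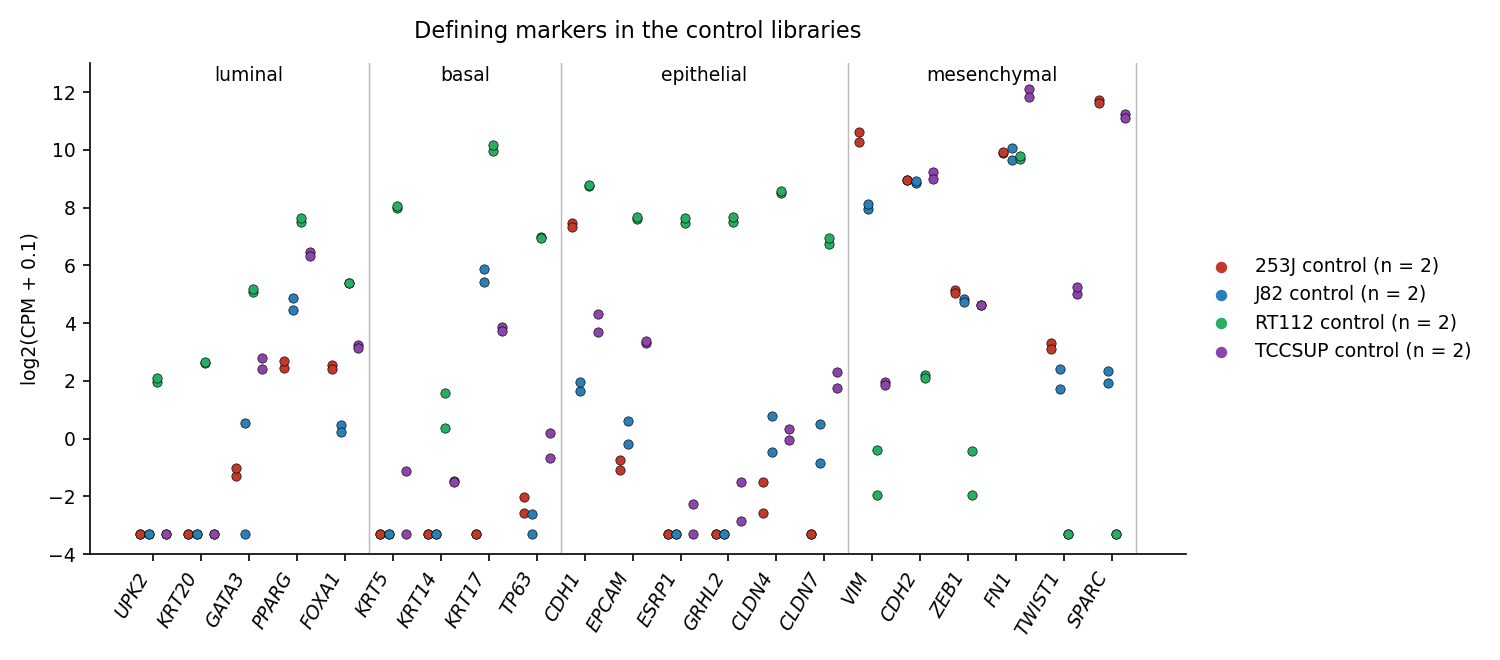
Points are single control libraries, coloured by line (2 each, some overlying one another), and the y axis is log2(CPM + 0.1), so that 0 counts lie at the lowest level shown. In 253J the basal keratins, UPK2, KRT20, ESRP1, GRHL2 and CLDN7 lie at that level, while CDH1 (178 and 161 CPM) and the mesenchymal genes drawn lie above it, VIM, CDH2, ZEB1, FN1 and SPARC at 33.0 CPM or more; other mesenchymal genes, such as SNAI2 and LUM, had 0 counts and are not drawn.

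253J had E-cadherin transcripts, while several other epithelial genes had no count. CDH1, which encodes E-cadherin, was at 178 and 161 CPM in 253J, 3.02 and 3.82 in J82, 19.6 and 12.9 in TCCSUP, and 427 and 440 in RT112. 253J was higher than J82 (log2 fold change 5.63) and TCCSUP (3.38) and below RT112 (−1.36). By contrast, ESRP1, an epithelial splicing regulator, and GRHL2, an activator of epithelial junction genes, had 0 counts in both 253J libraries, as they had in J82, while RT112 had 176 and 200 CPM of ESRP1 and 181 and 206 CPM of GRHL2. EPCAM, an epithelial adhesion molecule, was at 0.37 and 0.50 CPM in 253J and 197 and 205 CPM in RT112.

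Of 45 tested members of the epithelial junction list, 6 were higher and 14 lower than the mean (11.8% and 6.53% of all genes). Against each line 8 (17.8%) were lower, beside 3.49% of all genes. PPL, CLDN7, SPINT1, MARVELD2, CLDN4, PKP1 and PKP3 were among them. PPL, which encodes the desmosomal protein periplakin, had 0 counts in 253J and was higher in the other lines by at least 138.2-fold (J82), 693.4-fold (TCCSUP) and 2495-fold (RT112). CLDN7, a tight junction claudin, had 0 counts in 253J, 107 and 123 CPM in RT112 and 0.46 to 4.81 CPM in the other 2 lines. The list's median log2 fold change was −1.55 (−1.55 too when line means were held at or above the 3-count floor), beside −0.02 over all tested genes (−0.05 with the floor), and by line it was 0.06 against J82, −5.04 against RT112 and 0.00 against TCCSUP.

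The mesenchymal genes were split. VIM, which encodes the intermediate filament vimentin, was at 1573 and 1229 CPM in 253J, 248 and 282 in J82, 3.76 and 3.56 in TCCSUP, and 0.67 and 0.16 in RT112. Both 253J libraries lay above every other library (log2 fold change against the mean 7.56, SE 0.21, adjusted p = 2.89e-09; 2.40 against J82, the nearest line). CDH2, which encodes N-cadherin, was at 502 and 498 CPM in 253J and at similar levels in J82 (458 and 481) and TCCSUP (604 and 504), with RT112 at 4.49 and 4.23. ZEB1 followed CDH2, at 34.9 and 33.0 CPM in 253J against 24.3 to 28.3 in J82 and TCCSUP and 0.64 and 0.16 in RT112. For both genes the call against the mean rested on RT112: against J82 and TCCSUP the log2 fold changes were 0.09 and −0.15 for CDH2 and 0.31 and 0.48 for ZEB1. FN1, which encodes fibronectin, was at 957 and 982 CPM and was not called.

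Of 49 tested members of the mesenchymal list, 7 were higher and 17 lower than the mean (11.8% and 6.53% of all genes), and 1 (VIM, 2.04%) and 7 (14.3%) against each line (4.38% and 3.49%), with a median log2 fold change of −1.07 (−0.73 with the floor). By line the median was −1.316 against J82, −2.672 against TCCSUP and 1.203 against RT112, so its direction depended on the line. SPARC, a matrix glycoprotein, was at 3356 and 3171 CPM in 253J and 2406 and 2180 in TCCSUP, but at most 4.96 in J82 and at 0 in RT112. SNAI2, a repressor of epithelial genes also known as Slug, had 0 counts in 253J and exceeded that floor by at least 127.2-fold in J82, 165.7-fold in TCCSUP and 459.8-fold in RT112. LUM, which encodes the proteoglycan lumican, had 0 counts in 253J, 59.7 and 58.4 CPM in J82, 1265 and 1239 in RT112 and 1021 and 923 in TCCSUP. TAGLN, MYL9, LOXL1 and S100A4 were also among the 7, and covered smooth muscle contraction, matrix cross-linking and calcium binding.

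Of 31 tested collagen genes, 8 were higher and 12 lower than the mean (11.8% and 6.53% of all genes). Against each line 2 were higher and 2 lower (6.45% each), beside 4.38% and 3.49% of all genes. COL4A1, a chain of basement membrane collagen IV, was at 1882 and 1780 CPM in 253J, 55.9 and 30.8 in J82, 353 and 357 in RT112 and 9.09 and 6.82 in TCCSUP, and 253J was higher than each line (log2 fold change against the mean 5.20, SE 0.19, adjusted p = 1.13e-08). COL3A1, a fibrillar collagen, had 0 counts in 253J, against 2657 and 2855 CPM in J82, 600 and 648 in TCCSUP and 1.46 and 1.33 in RT112. Among integrins and laminins, 10 of 30 were higher and 2 lower than the mean (11.8% and 6.53% of all genes), and 2 (6.67%) and 1 (3.33%) against each line (4.38% and 3.49%). LAMA1, a basement membrane laminin chain, was at 144 and 166 CPM in 253J against 4.02 to 25.2 CPM elsewhere (log2 fold change 4.30, SE 0.21).

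**Figure D3:**
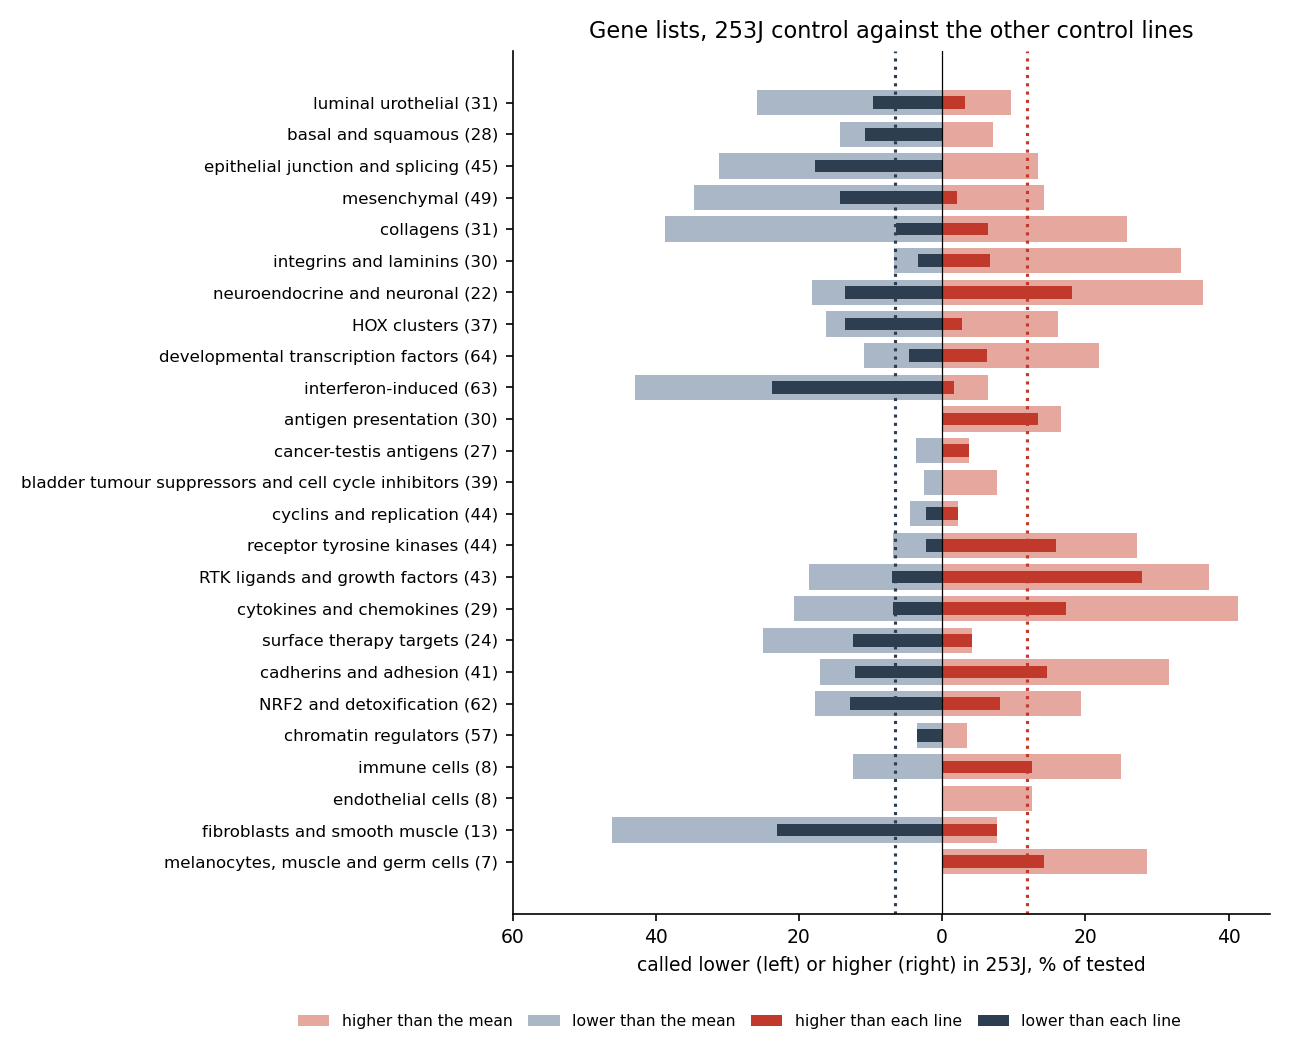
Bars give the percentage of the tested members of gene lists (their number in brackets; a kidney list compiled later is not drawn) called higher (right) or lower (left) in 253J, wide pale bars against the mean of the other lines and narrow dark bars against each of them; dotted lines mark the percentages over all tested genes, 11.8% and 6.53%, against the mean. The interferon-induced list extends far to the left (27 of 63 against the mean) and the list of receptor tyrosine kinase ligands and growth factors to the right (16 of 43).

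Among protein-coding genes at 10 CPM or more in 253J and with more than 3 counts in at least 1 library of every other line, those that stood farthest above the other lines were PXDN, GCNT3, SPNS2, NLGN1, PAX8, TLL2, TNFRSF6B, SPP1, EPHA7 and HKDC1. SPP1, which encodes the secreted phosphoprotein osteopontin, was at 2766 and 3286 CPM in 253J, 0.14 and 0 in J82, 55.2 and 60.4 in RT112 and 366 and 339 in TCCSUP. PAX8, a paired box transcription factor of kidney, thyroid and Müllerian development, was at 65.9 and 79.4 CPM in 253J and at no more than 0.44 CPM in any other library. For PAX8 the log2 fold change against the mean was 8.64 (SE 0.27, adjusted p = 5.91e-09), and 7.54 against TCCSUP, the nearest line.

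PXDN, which encodes the collagen IV cross-linking peroxidase peroxidasin, was at 517 and 578 CPM in 253J and at most 1.60 elsewhere. GCNT3, a mucin-type glycosyltransferase, was at 401 and 429 CPM in 253J against at most 6.46. HKDC1, a hexokinase family member, was at 314 and 323 CPM against at most 7.41. For these genes the 2 groups of libraries did not overlap, and all 10 differed at an adjusted p between 3.46e-10 and 3.89e-08. SPNS2 exports sphingosine 1-phosphate, NLGN1 is a synaptic adhesion molecule, TLL2 a tolloid-like protease and TNFRSF6B a soluble decoy receptor of Fas ligand.

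A set of 245 genes, 162 of them protein coding, had more than 3 counts in 253J and at most 3 in every control library of the other lines, and 136 of them had 0 counts in all 6. Of the 245, 33 reached 10 CPM in 253J. The same measure gave 20 genes in J82, 56 in RT112 and 27 in TCCSUP, so that 253J lay within the range of the other lines. CCND2, which encodes cyclin D2, was at 162 and 141 CPM in 253J and had no count in any other control library, at least 1367-fold to 1631-fold higher by the floor of each line. CCND1, the related cyclin D1 gene, was at 76.4 and 56.1 CPM in 253J, below the 175 to 485 CPM of the other libraries, and was lower against the mean (log2 fold change −2.09, adjusted p = 1.54e-06).

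Several of these genes encode enzymes and transporters. UGT2A3 and UGT2B7, which encode UDP-glucuronosyltransferases, were at 136 and 129 CPM and at 47.2 and 54.9 CPM in 253J with no count in the other lines. Because genes of the UGT2 family are near copies, their separate values are uncertain. HGD, an enzyme of tyrosine breakdown, was at 64.0 and 66.1 CPM against at most 0.091 CPM. SLC17A3, an organic anion and urate transporter, was at 36.7 and 49.0 CPM with no count elsewhere, at least 386.8-fold higher. TINAG, a basement membrane antigen of kidney tubules, was at 65.9 and 67.6 CPM with no count elsewhere. The neutral amino acid transporter gene SLC6A15 (178 and 217 CPM), the sulfotransferase gene CHST9 (56.5 and 55.8 CPM) and the nucleotide sugar transporter family gene SLC35F3 (44.9 and 42.9 CPM) were similarly restricted. PRAME, a cancer-testis antigen, was at 107 and 108 CPM against at most 0.11. Of 27 tested genes of a cancer-testis list, 1 (PRAME) was higher and 1 lower than the mean (11.8% and 6.53% of all genes). Against each line PRAME alone (3.7%) was higher, a share near the 4.38% of all genes.

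**Figure D4:**
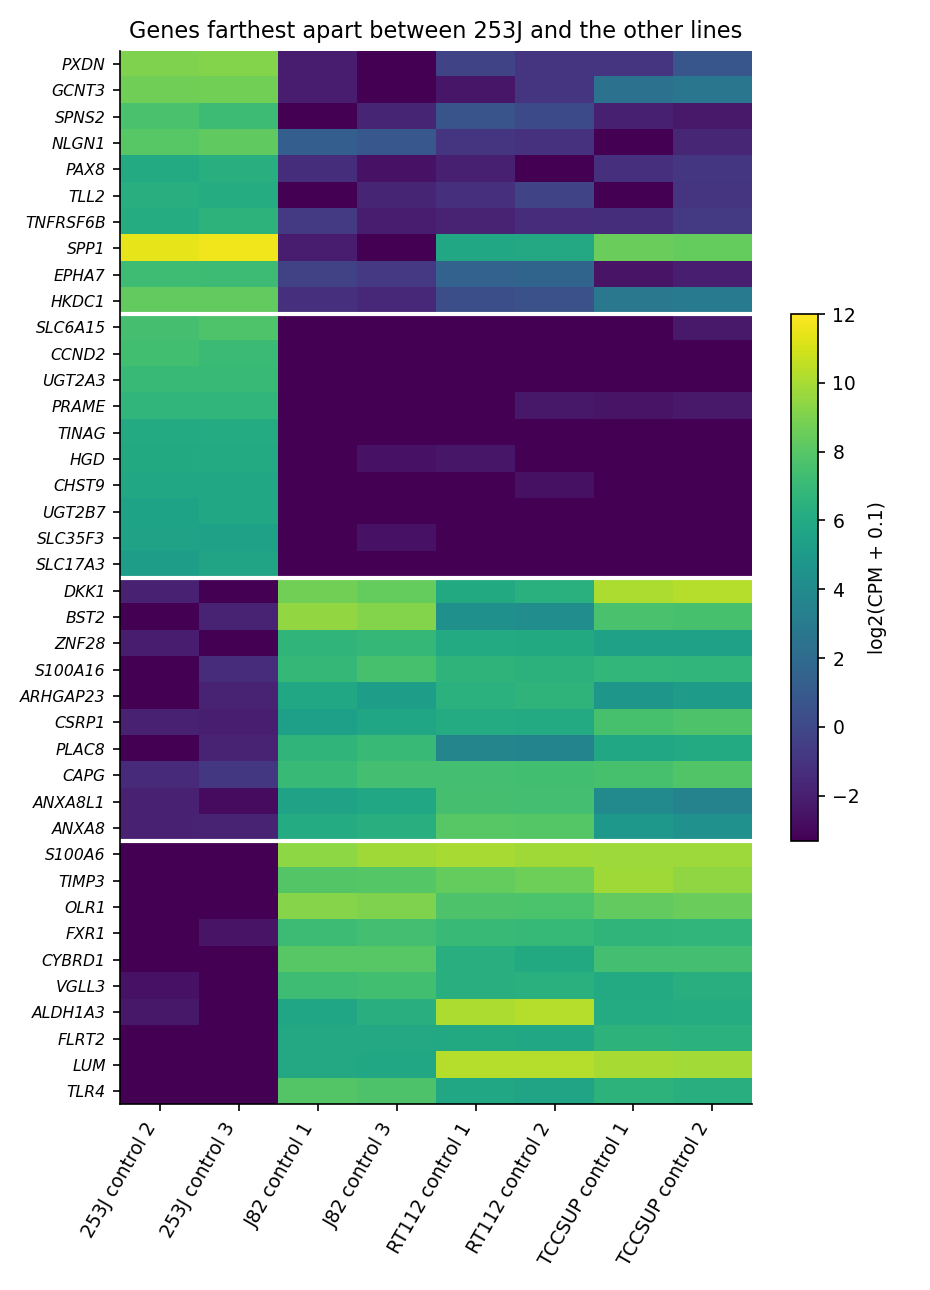
Rows are the 40 protein-coding genes that head each of 4 groups, columns are the 8 control libraries and colour is log2(CPM + 0.1). From the top, the blocks of 10 are genes highest above the other lines, genes above 3 counts only in 253J, genes farthest below the other lines among those above 3 counts in a 253J library, and genes at 3 counts or fewer in 253J; in each block both 253J columns stand on the opposite side from all 6 others, and within the last 2 blocks the other lines still differ among themselves, as for ALDH1A3 and LUM.

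Of 64 tested developmental transcription factors, 14 were higher and 7 lower than the mean (11.8% and 6.53% of all genes). Against each line 4 were higher and 3 lower, or 6.25% and 4.69%, not far from the 4.38% and 3.49% of all genes. SOX11 (3.17 and 3.60 CPM, at most 0.036 elsewhere) and the endodermal and cardiac factor gene GATA4 (1.55 and 2.27 CPM, at most 0.075 elsewhere) were among those higher than in each line. PITX1, a hindlimb homeobox gene, was at 0.13 and 0.14 CPM in 253J against 2.35 to 57.0, and SIX2 had 0 counts.

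Among HOX genes, which mark position along the body axis, 6 of 37 were higher and 6 lower than the mean (11.8% and 6.53% of all genes), and 1 (2.7%) and 5 (13.5%) against each line (4.38% and 3.49%). HOXB2 was at 29.6 and 31.3 CPM in 253J, 6.80 and 7.62 in TCCSUP and at most 0.33 in J82 and RT112. The 5 lower genes were HOXA11, HOXD11, HOXD10, HOXC11 and HOXC13, all of the posterior ends of their clusters, and the first 4 had 0 counts in 253J. These 4 were also low in some of the other lines. HOXA11 was at 0.49 to 0.85 CPM in J82 and RT112 and at 16.4 and 16.5 in TCCSUP. In the other control libraries HOXD11 was at 0.75 to 5.26 CPM, HOXD10 at 0.64 to 3.355 and HOXC11 at 0.28 to 4.21. Of 36 neuroendocrine and neuronal genes listed, 22 passed the count filter. Of these, 4 (18.2%) were higher and 3 (13.6%) lower than in each line (4.38% and 3.49% of all genes). NEFM (no count in the other lines), POU3F3 (at most 0.075 CPM there) and SOX11 were among the 4 higher genes. They passed the filter through 253J alone, which raises the higher share. NCAM1, a neural cell adhesion molecule, was at 95.4 and 126 CPM in 253J against at most 2.94. UCHL1, a neuronal deubiquitinase, had 0 counts in 253J, 279 and 308 CPM in TCCSUP, 2.47 and 2.71 in J82 and 0.27 and 0.32 in RT112.

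Among the lists plotted, which do not include a kidney list compiled after values were seen, growth factor genes had the most members above each line. Of 43 tested ligands, 16 were higher and 8 lower than the mean (11.8% and 6.53% of all genes). Against each line 12 (27.9%) were higher and 3 (6.98%) lower, beside 4.38% and 3.49% of all genes. The median log2 fold change was 1.42 (0.88 with the floor), and by line 1.274 against J82, 1.165 against RT112 and 0.225 against TCCSUP. Against the arithmetic mean of the 3 line means the median log2 ratio was −0.433, beside −0.183 over all tested genes, so its sign depended on the kind of mean. TGFA, a ligand of the EGF receptor, was at 675 and 624 CPM in 253J, 0.54 and 0.65 in J82, 44.7 and 49.4 in RT112 and 44.6 and 37.0 in TCCSUP (log2 fold change 5.95, adjusted p = 8.64e-10). AREG, which encodes amphiregulin, another such ligand, was at 219 and 259 CPM against at most 24.3 (7.06, SE 0.18, adjusted p = 2.30e-09). EGFR itself, the receptor, was at 297 and 296 CPM in 253J and was not called (0.10). GDF15, a stress-induced cytokine, was at 508 and 574 CPM against at most 50.6, and LIF, a cytokine of the interleukin 6 family, at 347 and 362 CPM against at most 75.8.

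The ligand genes NRG3 and FGF5 were counted only in 253J among the controls, at 5.06 and 7.02 CPM and at 3.64 and 2.38 CPM. Genes of this kind passed the count filter through 253J alone, which raises the higher counts of the list. In the other direction, TGFB2, a transforming growth factor, was at 0.20 and 0.54 CPM in 253J against 498 and 487 in J82 and 624 and 526 in TCCSUP, with RT112 at 3.40 and 4.92. PDGFB, which encodes a platelet-derived growth factor chain, had 0 counts in 253J and was at least 74.64-fold to 170.1-fold higher in the other lines.

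Of 44 tested receptor tyrosine kinases, 12 were higher and 3 lower than the mean (11.8% and 6.53% of all genes), and 7 (15.9%) and 1 (2.27%) against each line (4.38% and 3.49%). FGFR4, a fibroblast growth factor receptor, was at 121 and 126 CPM in 253J, 2.18 and 2.40 in RT112 and at most 0.19 in J82 and TCCSUP (log2 fold change 9.25, SE 0.24, adjusted p = 2.30e-09). The ephrin receptor genes EPHB1 (63.1 and 55.3 CPM), EPHA5 (80.9 and 92.3 CPM) and EPHA7 (152 and 148 CPM) were all higher than in each line, as were FLT4, MERTK and ROR1. FGFR3, a receptor often altered in luminal BC, was at 7.25 and 8.68 CPM in 253J against 769 and 752 in RT112 and was not called. MST1R, the receptor of macrophage stimulating protein, was the member lower than in each line, at 0.13 and 0.14 CPM.

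Among adhesion genes, 13 of 41 were higher and 7 lower than the mean (11.8% and 6.53% of all genes), and 6 (14.6%) and 5 (12.2%) against each line (4.38% and 3.49%). CDH6, which encodes the kidney cadherin K-cadherin, was at 333 and 390 CPM in 253J, 12.98 and 13.6 in J82, 0 in RT112 and at most 0.87 in TCCSUP (adjusted p = 1.40e-09 against the mean, and a log2 fold change of 4.77 against J82, the nearest line). CADM1, an immunoglobulin family adhesion molecule, was at 515 and 457 CPM against at most 36.1. CDH8 had 0 counts in 253J and 2.87 to 29.0 CPM elsewhere. Among 24 tested targets of surface therapies, 1 (4.17%) was higher and 3 (12.5%) were lower than in each line (4.38% and 3.49% of all genes). The higher share was near that of all genes. The higher member was ROR1, at 53.4 and 46.8 CPM against 2.37 to 12.3, and MSLN and F3 were among the lower.

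Interferon-induced genes, many of them antiviral effectors that cells express after interferon or through tonic signalling, were in part lower in 253J. Of 63 tested members, 4 were higher and 27 lower than the mean (11.8% and 6.53% of all genes), and 1 (1.59%) and 15 (23.8%) against each line (4.38% and 3.49%). MX2, an antiviral GTPase, had 0 counts in 253J, 189 and 166 CPM in J82, 7.85 and 8.90 in RT112 and 46.0 and 42.3 in TCCSUP. IFITM3, which blocks virus entry, had 0 counts in 253J, and the other lines were at least 34.11-fold (RT112), 817.2-fold (TCCSUP) and 2047-fold (J82) higher. BST2, which encodes tetherin, was at 0 and 0.18 CPM against 18.1 to 739 CPM (log2 fold change −10.51, SE 0.41, adjusted p = 1.78e-08).

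The size of the difference depended on the line it was measured against. The median log2 fold change of the list was −1.74 (−1.74 with the floor) against the mean, −3.72 against J82, −1.84 against TCCSUP and 0.05 against RT112. IRF9, a transcription factor that carries the interferon signal, was present at 9.84 and 12.1 CPM and was not called (−1.46). STING1, the adaptor of cytosolic DNA sensing, had 0 counts in both 253J libraries and 7.81 to 21.3 CPM in the other lines, while CGAS, the sensor upstream of it, was at 45.2 and 30.1 CPM. LAMP3, the interferon-induced member higher than in each line, was at 18.9 and 22.0 CPM.

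Of 30 tested antigen presentation genes, 5 were higher than the mean (11.8% of all genes) and 4 of these (13.3%) were higher than in each line (4.38%). Those 4 were of the class II pathway. CD74, the invariant chain, was at 136 and 152 CPM in 253J, 3.42 and 1.44 in J82, 0 in RT112 and 1.73 and 2.40 in TCCSUP (adjusted p = 2.06e-08 against the mean, and a log2 fold change of 5.89 against J82, the nearest line). HLA-DRB1, HLA-DQB1 and HLA-DPA1 were at 6.10 to 15.9 CPM in 253J against at most 0.91. These genes have near copies, so the values of single genes are uncertain, and with DESeq2 the adjusted p of HLA-DRB1 (0.0205) and HLA-DQB1 (0.0213) missed the limit. CIITA, the transactivator of class II genes, was at 0 and 0.22 CPM and was not called. The class I gene HLA-B (410 and 416 CPM) was not called.

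Of 29 tested cytokines and chemokines, 12 were higher and 6 lower than the mean (11.8% and 6.53% of all genes), and 5 (17.2%) and 2 (6.9%) against each line (4.38% and 3.49%). CCL2, a monocyte attractant, was at 72.7 and 59.7 CPM in 253J against at most 1.36, and the neutrophil attractant gene CXCL1 at 43.5 and 30.7 CPM against at most 4.20. The interleukin 1 genes IL1A and IL1B had 0 counts in 253J and 1.49 to 6.14 CPM and 0.71 to 3.46 CPM in the other lines.

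Of 62 tested detoxification genes, 12 were higher and 11 lower than the mean (11.8% and 6.53% of all genes), and 5 (8.06%) and 8 (12.9%) against each line (4.38% and 3.49%). ALDH1A1, a retinaldehyde dehydrogenase, was at 6266 and 4507 CPM in 253J, 190 and 305 in TCCSUP and at most 0.32 in J82 and RT112 (log2 fold change 11.80, SE 0.34, adjusted p = 3.74e-09). ALDH1A3, an enzyme of the same reaction, was at 0.10 and 0 CPM in 253J (3 counts in all), 53.3 and 82.4 in J82, 1118 and 1255 in RT112 and 69.8 and 71.2 in TCCSUP, which gives a ratio of RT112 to 253J of 22720 (95% counting interval 7775 to 110200). NNMT, which methylates nicotinamide, was at 378 and 293 CPM against at most 89.3. GSTM3, a glutathione transferase, and ME1, which encodes malic enzyme, had 0 counts in both 253J libraries, and GSTM3 has near copies.

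Of 57 tested chromatin regulators, 2 were higher and 2 lower than the mean (11.8% and 6.53% of all genes). The 2 lower genes were also lower than in each line (3.51%, near the 3.49% of all genes). SMARCB1, a core subunit of the SWI/SNF remodelling complex, was at 4.58 and 3.75 CPM in 253J, 26.3 and 28.1 in J82, 34.3 and 38.1 in RT112 and 19.95 and 24.1 in TCCSUP (−2.74, SE 0.16, adjusted p = 3.00e-07). TET1, a 5-methylcytosine dioxygenase, had 0 counts in 253J and was at least 25.71-fold higher in each other line. DNMT3B, a de novo DNA methyltransferase, was at 83.7 and 95.6 CPM against 9.58 to 23.1, and was higher than the mean (2.60).

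Of 39 tested tumour suppressors, 3 were higher and 1 lower than the mean (11.8% and 6.53% of all genes). CDKN2A, which encodes p16 and p14ARF, had 0 counts in 253J and in RT112, 115 and 157 CPM in J82 and 81.0 and 77.8 in TCCSUP. Its neighbour CDKN2B, which encodes p15, was at 0.44 and 0.83 CPM in 253J, 0 in RT112 and 84.0 to 116 in J82 and TCCSUP. MTAP, which lies on the other side of CDKN2A and salvages methylthioadenosine, was at 13.5 and 14.9 CPM in 253J, below J82 (144 and 191) and TCCSUP (80.3 and 88.9), with 0 counts in RT112. MTAP was thus lower than J82 (log2 fold change −3.56) and TCCSUP (−2.58). Among 44 cyclins and replication genes, CCND2 was the member higher and CCNE2 the member lower than each line. Each was 2.27% of the list, below the 4.38% and 3.49% of all genes. CCNE2 (cyclin E2) was at 4.52 and 4.11 CPM against 39.9 to 95.4.

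The genes that 253J lacked were defined as those with at most 3 counts in both 253J control libraries and a mean of at least 5 CPM in each other line. There were 103 such genes, 1.09% of the 9429 genes at that level in the other lines, 92 of them protein coding, and 80 had 0 counts in both libraries. Measured in the same way, J82 lacked 9, TCCSUP 7 and RT112 56. At this depth 3 counts in 253J equal 0.105 CPM, and the floor covers counting error only.

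S100A6, which encodes the calcium-binding protein calcyclin, had the highest level in its lowest other line. It had 0 counts in both 253J libraries, 663 and 901 CPM in J82, 1008 and 903 in RT112 and 871 and 859 in TCCSUP. The other lines were therefore at least 7479-fold (J82), 8270-fold (TCCSUP) and 9137-fold (RT112) higher. TIMP3, an inhibitor of matrix metalloproteinases, had 0 counts in 253J, 239 and 244 CPM in J82, 336 and 389 in RT112 and 887 and 689 in TCCSUP. OLR1, a receptor of oxidised lipoprotein, had 0 counts in 253J and 206 to 588 CPM elsewhere.

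FXR1, which encodes an RNA-binding protein of the fragile X family that most cells express, had 0 and 2 counts in 253J, against 2752 to 5214 counts in the other control libraries. The ratio of J82 to 253J was 4535 (95% counting interval 1255 to 37450). The nearest expressed genes on each side in the reference order, TTC14 and DNAJC19, had 2394 and 2379 counts and 1490 and 1231 counts in 253J, so the lack was not shared by the neighbouring genes. CYBRD1, a ferric reductase, FLRT2, an adhesion and guidance protein, and TLR4, the receptor of lipopolysaccharide, had 0 counts in 253J. VGLL3, a cofactor of TEAD factors, had 2 and 0 counts.

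Other genes were far below each line but had more than 3 counts in at least 1 253J library. DKK1, a secreted WNT inhibitor, was at 0.17 and 0 CPM in 253J against 63.4 to 1230 CPM (log2 fold change −11.78, SE 0.44, adjusted p = 1.37e-08). S100A16, from the same S100 family as S100A6, was at 0 and 0.29 CPM against 93.6 to 185, CAPG, an actin-capping protein, at 0.27 and 0.47 CPM against 129 to 226, and CSRP1, a LIM protein, at 0.17 and 0.14 CPM against 40.1 to 208. ANXA8 and ANXA8L1, annexin genes, were both low, but are near-identical copies whose reads cannot be separated with confidence. ARHGAP23, PLAC8 and ZNF28 completed the 10 farthest below the other lines among protein-coding genes with such residual counts and at least 10 CPM in each other line, a ranking that sets aside the genes at 3 counts or fewer in both 253J libraries.

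Among the lacked genes the inflammatory caspases CASP4 and CASP1, neighbours on chromosome 11, had 0 counts in all 4 253J libraries, with and without CM-1758, while the other control libraries held 30.3 to 92.9 CPM of CASP4 and 8.02 to 19.1 CPM of CASP1. Placed in the order of the reference genome among 11528 genes at 1 CPM or more in each other line, 221 genes were at 3 counts or fewer in 253J, and 51 of them formed 21 runs of 2 to 6 neighbours. The longest run was ZNF468, ZNF320, ZNF888, ZNF321P, ZNF816 and ZNF702P on chromosome 19.

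Zinc finger genes of the KRAB type mostly lie in clusters on chromosome 19, and many of them repress transposable elements. Genes were taken here by their ZNF symbol, without a check for the KRAB domain. The ZNF genes were prominent among the lacked genes. The grouping by chromosome was made after their values had been seen. Of 238 tested protein-coding ZNF genes on chromosome 19, 73 were lower and 5 higher than the mean (6.53% and 11.8% of all genes). Against each line 66 (27.7%) were lower, beside 3.49% of all genes. Of 243 ZNF genes on other chromosomes, 11 were lower and 11 higher than the mean, and 8 (3.29%) were lower and 4 higher than in each line, the lower share being near that of all genes. The lacked genes held 28 of 163 chromosome 19 genes at 5 CPM or more in each other line and 1 of 166 elsewhere. The median log2 fold change was −0.89 (−0.88 with the floor) on chromosome 19 and −0.12 (−0.13) elsewhere. Clustered ZNF genes share sequence, so reads can be split between neighbours, and single values are less certain than the counts of genes.

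ZNF347, a member of these clusters, had 0 counts in both 253J control libraries, 129 and 152 CPM in J82, 31.2 and 33.0 in RT112 and 59.5 and 55.7 in TCCSUP. ZNF544 had 0 counts in all 4 253J libraries and 34.0 to 63.2 CPM in the other control libraries.

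The sequence just upstream of the start of 4 lacked genes is shown, of S100A6 and TIMP3 because they head the lacked genes by level in the other lines, of FXR1 because most cells express it, and of ZNF347 as a member of the zinc finger clusters. Each is the 250 bases before the start in RefSeq on GRCh38.p14, read 5′ to 3′ on the strand of the gene, with every CG dinucleotide, the site of DNA methylation in mammals, in capitals. S100A6 is on the minus strand at chr1:153535992-153536241, TIMP3 on the plus strand at chr22:32801455-32801704, FXR1 on the plus strand at chr3:180912420-180912669 and ZNF347 on the minus strand at chr19:53159054-53159303.
S100A6: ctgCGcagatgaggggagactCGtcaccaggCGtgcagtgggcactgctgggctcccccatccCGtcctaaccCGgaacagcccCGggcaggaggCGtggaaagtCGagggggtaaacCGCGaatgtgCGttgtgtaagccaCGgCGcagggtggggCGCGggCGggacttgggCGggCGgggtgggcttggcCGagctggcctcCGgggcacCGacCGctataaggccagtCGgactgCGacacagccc
TIMP3: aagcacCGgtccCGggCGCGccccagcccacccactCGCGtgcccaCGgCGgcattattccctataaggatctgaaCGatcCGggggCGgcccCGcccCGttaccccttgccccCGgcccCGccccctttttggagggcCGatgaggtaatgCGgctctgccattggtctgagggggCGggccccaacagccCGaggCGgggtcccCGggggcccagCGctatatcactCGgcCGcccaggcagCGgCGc
FXR1: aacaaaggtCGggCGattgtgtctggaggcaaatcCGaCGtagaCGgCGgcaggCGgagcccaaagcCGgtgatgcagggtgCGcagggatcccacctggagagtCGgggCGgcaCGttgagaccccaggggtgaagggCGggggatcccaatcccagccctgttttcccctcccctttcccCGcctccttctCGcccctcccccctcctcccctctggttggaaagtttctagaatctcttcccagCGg
ZNF347: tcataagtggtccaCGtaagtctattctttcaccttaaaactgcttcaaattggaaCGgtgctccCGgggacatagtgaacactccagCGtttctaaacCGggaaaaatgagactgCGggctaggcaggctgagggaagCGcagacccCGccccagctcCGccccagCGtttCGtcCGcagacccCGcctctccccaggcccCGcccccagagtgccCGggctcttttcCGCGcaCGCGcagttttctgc
They hold 24 (S100A6), 26 (TIMP3), 16 (FXR1) and 19 (ZNF347) CG dinucleotides. Of 27305 promoters of the same length in the table, 23.3% held at least as many as S100A6, 19.2% as TIMP3, 40.8% as FXR1 and 34.3% as ZNF347. CG reads the same on both strands, no methylation was measured in these files, and the counts describe the sequence alone. A sequence was found for only 68 of the 103 lacked genes, so that a comparison of the lacked genes as a set with other genes is void.

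**Figure D5:**
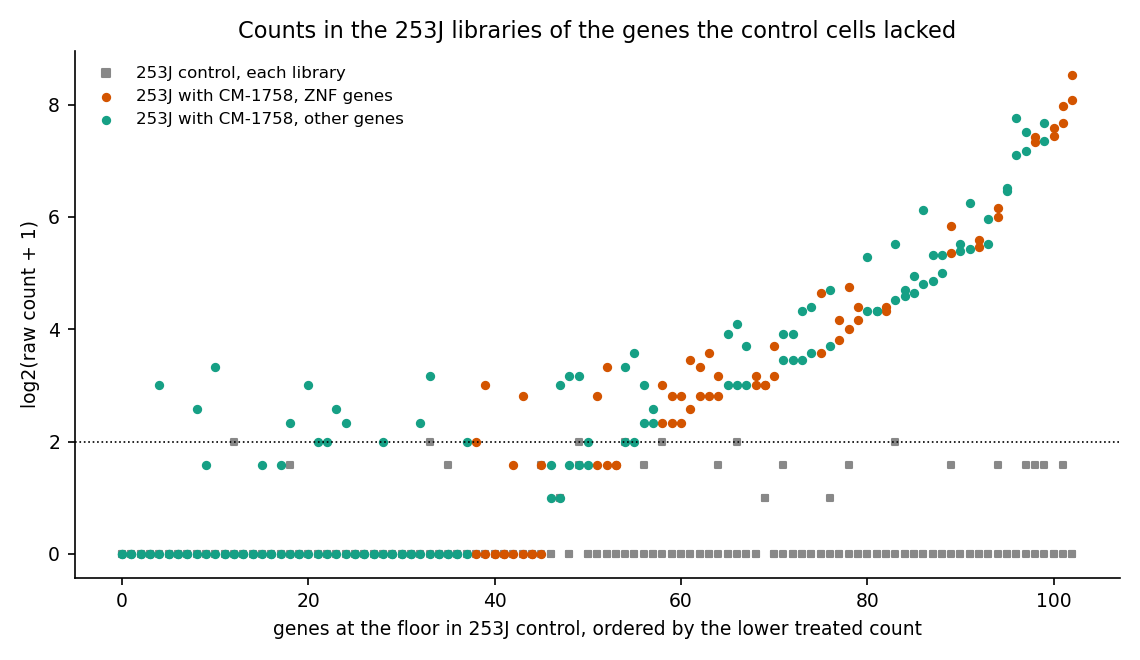
The x axis orders the 103 genes lacked by 253J control cells by the lower of their 2 counts in the CM-1758-treated 253J libraries, and the y axis is log2(raw count + 1). Grey squares are the 2 control libraries, coloured points the 2 treated libraries (orange for ZNF genes), and the dotted line marks 3 counts: 47 genes lie above it in both treated libraries, up to 270 and 369 counts for ZNF347, and 38 genes in neither.

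Markers of other cell types were counted as a check of the cultures. Of all 35993 symbols, 17481 to 17738 were above 3 counts in a 253J library, so many genes of any kind were at the floor. Of 20 immune genes, 15 were at 3 counts or fewer in both 253J libraries, PTPRC, the gene of the pan-leukocyte marker CD45, among them at 0, and the summed level was 10.6 to 11.6 CPM in 253J and 4.29 to 65.8 CPM in the other control libraries. Of 12 endothelial genes 7 were at the floor, and the sum was 128 to 159 CPM in 253J (EGFL7 accounting for a mean of 140 CPM) and 11 to 222 CPM in the others. Of 16 fibroblast and smooth muscle genes 10 were at the floor, including COL3A1, LUM, DCN and FAP at 0 counts, and the sum was 97.6 to 115 CPM in 253J against 1270 to 9010 CPM in the others. Of 16 melanocyte, muscle and germ cell genes 10 were at the floor, with a sum of 39.9 to 43.4 CPM in 253J and 15.3 to 88.6 CPM in the others. Among these lists, RGS5 (82.5 and 63.7 CPM), ITGAM (1.89 and 1.66 CPM) and POU5F1 (5.19 and 8.03 CPM) were higher in 253J than in each line. POU5F1 has transcribed copies elsewhere in the genome. In bulk RNA, fewer cells of a type and less RNA per cell cannot be told apart, and the part of other cells in these results was not tested.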

How the data were processed

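Total RNA of 4 BC lines was sequenced by the submitters, and the deposited table holds raw counts per gene symbol, which the authors obtained from their reads (whole numbers, not normalized). The submitters' processing notes name HISAT2, StringTie and GRCh37, without versions or roles. The table has 35993 symbols, of which 34000 were current RefSeq symbols and 725 matched by synonym. No gene coordinates were taken across builds; only chromosome and gene order came from RefSeq on GRCh38.p14.

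The 8 control libraries (27655401 to 32537104 counts) were grouped by their labels. Genes were filtered with filterByExpr (18307 tested), scaled by TMM (factors 0.941 to 1.11) and fitted with edgeR 4.0.16 in R 4.3.3 by the quasi-likelihood test, with cell line as the factor (4 residual degrees of freedom), after the functions had been tested on simulated data. Calls needed a log2 fold change over 2 or under -2 and an adjusted p under 0.01 (Benjamini-Hochberg over all tested genes), the limits used in the study. The contrast with the mean averages the log levels of 3 lines; "each" needed all 3 pairwise contrasts in 1 direction. The mean of a gene with no count in a group was not used for a fold; bounds were computed against 3 counts per library.

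Genes named were the 10 with the largest difference above each line among genes at 10 CPM or more in 253J and above 3 counts in a library of every other line, the 10 most abundant above 3 counts only in 253J, the 10 farthest below each line among genes above 3 counts in a 253J library and at 10 CPM or more in each other line, the 10 lacked genes highest in their lowest other line, up to 4 members per direction of each list, and defining markers. The members, lists and rules were chosen with earlier results of these data known, and list members outside the rule, the zinc finger grouping, the runs of neighbours and the genes beside FXR1 were picked after their values were seen. No set test was run. Genes with no count in the other lines passed the count filter through 253J alone, which can raise the higher share of a list. Alternatives included DESeq2 1.42.0, other scalings, filters and limits, leaving out each library and each line, and the replicate number as a block. Some members of the lists are counted but not reported by name here.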

Additional observations from a re-analysis of the deposited data

Results flagged for a closer look

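Counts in the CM-1758-treated 253J libraries, which enter none of the comparisons, were above the control level for part of the genes that 253J lacked. Of the 103 genes, 47 had more than 3 counts in both treated libraries, 18 in 1 of them and 38 in neither. Because the genes were chosen for their low control counts, a treated count could hardly be lower, and no test was made. ZNF347 had 270 and 369 counts in the 2 treated libraries after 0 in both controls, ZNF761 had 203 and 250 after 0 and 2, and ZNF320 had 173 and 190 after 0 in both. VGLL3, ACSL5, ZNF793 and ZSCAN18 were the other 4 of 7 genes with more than 100 counts in both treated libraries. FXR1 had 10 and 14 counts with CM-1758, and TIMP3 and OLR1 had 0 in both. With 23 of the 103 genes, no count was present in any of the 4 253J libraries. Groups of 2 libraries are too small for a search for outlying libraries.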

How the results depend on the processing

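The number of calls depended on the filter and the limits. With at least 10 counts required in every library, which removes genes absent from a line, 421 genes were higher and 315 lower than the mean, and 104 and 121 against each line. At a log2 fold change of 1 and adjusted p of 0.05 the counts were 3627, 2486, 1481 and 1087. Deviations of same-numbered libraries correlated at -0.154 to 0.049. With 2 libraries a line, the deviations within a line mirror each other, so these values cannot exclude a shared batch. With the number as a block, 518 genes were higher and 535 lower than each line, against 802 and 639 without it. Requiring the arithmetic mean as well left 1291 higher genes, an alternative added after the data were seen. Leaving out single libraries gave 1786 to 2436 higher and 1023 to 1276 lower genes against the mean, 565 to 806 and 526 to 682 against each line, and 101 to 116 lacked genes. Of the lacked genes, 28 remained at 20 CPM or more in each other line, 221 were found at 1 CPM, and 38 were also at 3 counts or fewer in the treated libraries. The share of calls that were higher was 64.3%, and 56.7% with DESeq2, 57.2% with at least 10 counts and 57.6% without RT112. Of 2626 values of 145 named genes in the alternatives, 2597 kept direction and call, 12 lost a call, 12 gained one and 5 changed sign. These were CDKN2B (0.043 without J82), FOXA1 (0.75), CDH2 (-0.029) and MTAP (-3.07, all 3 without RT112) and FN1 (0.12 without TCCSUP), which the line left out had set. GATA3 and TP63 lost their calls without single libraries. GATA3 was at -3.70 and -4.07 without 253J replicate 2 or 3 and at -1.44 without J82 replicate 1. TP63 was at -3.39 without 253J replicate 2 and at -2.79 without J82 replicate 3. GATA3 also lost its call with the block (-3.23), and without RT112 in the mean both lost theirs (GATA3 -2.51, TP63 -0.67). Depth limits genes near 3 counts, and 2 libraries a line limit every test.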

Other observations

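Genes of the kidney nephron were conspicuous among those that set 253J apart, and a list of 62 of them was written after the values of PAX8, CDH6, TINAG and others had been seen, so that its count is a description without a test. Of these 62, 39 passed the count filter. Members with no count in the other lines passed it through 253J alone, which raises the higher counts and the median below. Of the 39 tested members, 25 were higher and 4 lower than the mean of the other lines (11.8% and 6.53% of all tested genes). Against each line 18 were higher and 1 lower, beside 4.38% and 3.49% of all tested genes. The median log2 fold change was 5.48 (3.03 with line means held at or above the 3-count floor), and by line 4.07 against J82, 5.71 against RT112 and 4.32 against TCCSUP. HAVCR1, the kidney injury molecule, was at 387.8 and 391.7 CPM in 253J, 73.1 and 69.8 in TCCSUP and at most 0.88 in J82 and RT112. SLC4A4, a sodium bicarbonate cotransporter, was at 175 and 195 CPM against at most 11.7. DMGDH, a choline pathway enzyme, was at 38.1 and 46.9 CPM, and the phosphate and urate transporter gene SLC17A1 at 10.2 and 13.1 CPM, both with no count in the other lines. SLC3A1, a cystine transporter subunit, was at 26.7 and 31.9 CPM against at most 0.27.

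The list was not present as a whole. In 253J, 26 of its 62 genes were at 3 counts or fewer in both libraries. Of all 35993 symbols, 17481 to 17738 were above 3 counts in a 253J library, so the floor count is not particular to this list. LRP2, UMOD, AQP2, SLC34A1 and SLC22A6 had 0 counts. PAX2, a partner of PAX8 in kidney development, was at 0 and 0.22 CPM. PDZK1, a scaffold of tubular transporters, was lower in 253J than in each line, at 0.20 and 0.54 CPM against 7.22 to 43.6. Some members are also genes of liver, intestine or thyroid. The labels give 253J as bladder cancer, and the counts name no other origin.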
